A study of Mus musculus with 6 samples.

Results

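The dual-specificity MAP kinase phosphatases considered here are the genes Dusp1, Dusp2, Dusp4, Dusp5, Dusp6, Dusp8, Dusp10, Dusp14 and Dusp16. Their probes were taken by the gene symbol in the array's annotation, which held 11 probes for 6 of the 9 genes among 16281 probes in all. Dusp4, Dusp5 and Dusp10 had no annotated probe and were not analysed here. The genes were named with earlier results of these data known, so the number of them that passed a test is a description and not evidence from an unseen choice.

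RNA was compared between RAW 264.7 cells exposed for 1 h to LPS (lipopolysaccharide, 100 ng/ml), a component of the outer membrane of Gram-negative bacteria, together with LPS-binding protein (LBP, 100 pM), and untreated RAW 264.7 cells kept in culture for the same time. Part of the labels give the line another number, and the sample titles were followed. RAW 264.7 is a transformed mouse macrophage line, so both groups come from 1 line and not from separate animals. Every one of the 6 arrays carried both RNAs in different dyes. Treated RNA was labelled with Cy5 on 3 arrays and with Cy3 on the other 3, each numbered as sets 1 to 3. Separate cultures for the sets are not stated in the labels, so p-values describe only how these samples vary, and that variation may be technical.

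MAP kinases (ERK, JNK and p38) are switched on by phosphorylation of a threonine and a tyrosine, and dual-specificity phosphatases switch them off by removing both phosphates. Several of their genes are themselves induced by the kinases they restrain, which makes them a negative feedback on the signal. In macrophages, LPS acts through TLR4 to activate ERK, JNK and p38, and Dusp1 is known in mouse to limit the cytokine output that follows.

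Values below are log2 ratios of treated over untreated RNA, so that 1 stands for a 2-fold higher level in treated cells. An exact 0 in the deposited table was read as no measured ratio. A ratio was present on all 6 arrays for 9 of the 11 Dusp probes, and averaged by gene these put 5 of the Dusp genes among the 8331 genes tested. The arrays of a set were averaged, and means are given ± SD over the 3 sets. The direction is likely Cy5 over Cy3, because the Cy5 sample is labelled as the test, and with Cy3 on top all signs would be the opposite. Under this reading Tnf, the tumour necrosis factor gene, was at 2.44 ± 0.19, Il1b, the interleukin 1 beta gene, at 2.54 ± 0.16 and Egr1, an immediate early transcription factor gene, at 5.13 ± 0.16. The table holds ratios and no intensities, so the level of macrophage markers could not be checked, and 9 of the 11 macrophage markers listed had a ratio on all arrays. The deposited values came without probe positions or a build, so no probe coordinates are given.

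Dusp2, Dusp1, Dusp8 and Dusp16 rose in treated cells by 2.62, 1.82, 1.19 and 1.18, while Dusp14 fell by 0.24 (limma, adjusted p between 3.75e-06 and 0.0216). The RNA is from bulk cultures, so a change in the share of cells with a transcript and a change in its amount per cell cannot be told apart. All 5 Dusp genes in the fit, which were not chosen blind to these results, passed the test at an adjusted p of 0.05, against 13.2% of all genes tested. The 4 that rose compare with 6.96% of all genes called higher, and the 1 that fell with 6.21% called lower. Dusp6 lacked a ratio on 1 array and so lay outside that fit. It fell by 1.21 ± 0.07 when incomplete probes were included (limma, adjusted p = 0.000943), a fit in which 6.38% of 10261 genes were called, 3.58% higher and 2.81% lower.

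The promoter windows of these 6 genes are shown because the genes moved in both directions, and short letter motifs can be read in them directly. The windows come from RefSeq on GRCm38.p6, 1 for each of the 6 genes, and span 300 bases, of which 50 lie past the annotated start. The 250 bases before the start are printed 5′ to 3′ on the gene's strand, with TGACG on either strand in capitals. TGACG is the core of the cyclic AMP response element (CRE), bound by CREB and ATF proteins, and TGACGTCA is the full palindrome, which holds TGACG on both strands. The stretches lie at chr2:127335909-127336158 (plus strand) for Dusp2, chr17:26508473-26508722 (minus strand) for Dusp1 and chr7:142095285-142095534 (minus strand) for Dusp8. Those of the other genes lie at chr6:134792629-134792878 (minus strand) for Dusp16, chr11:84068358-84068607 (minus strand) for Dusp14 and chr10:99262981-99263230 (plus strand) for Dusp6.
Dusp2: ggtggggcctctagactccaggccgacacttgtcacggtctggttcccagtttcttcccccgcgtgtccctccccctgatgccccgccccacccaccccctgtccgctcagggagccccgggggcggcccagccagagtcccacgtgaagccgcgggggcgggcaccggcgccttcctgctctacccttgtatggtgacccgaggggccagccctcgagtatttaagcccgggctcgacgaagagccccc
Dusp1: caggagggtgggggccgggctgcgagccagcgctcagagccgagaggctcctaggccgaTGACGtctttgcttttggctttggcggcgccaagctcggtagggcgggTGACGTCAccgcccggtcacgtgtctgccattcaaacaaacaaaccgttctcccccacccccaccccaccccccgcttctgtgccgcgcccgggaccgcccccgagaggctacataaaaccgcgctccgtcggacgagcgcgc
Dusp8: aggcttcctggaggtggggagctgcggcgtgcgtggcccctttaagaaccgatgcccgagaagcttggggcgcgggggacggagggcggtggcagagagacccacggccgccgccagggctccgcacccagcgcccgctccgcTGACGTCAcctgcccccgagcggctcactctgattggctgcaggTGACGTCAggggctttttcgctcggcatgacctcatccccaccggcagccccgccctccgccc
Dusp16: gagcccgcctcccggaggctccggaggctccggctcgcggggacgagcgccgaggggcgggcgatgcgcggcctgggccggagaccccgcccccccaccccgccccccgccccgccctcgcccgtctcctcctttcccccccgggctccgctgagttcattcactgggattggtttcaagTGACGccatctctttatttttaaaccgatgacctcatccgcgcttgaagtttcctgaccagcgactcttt
Dusp14: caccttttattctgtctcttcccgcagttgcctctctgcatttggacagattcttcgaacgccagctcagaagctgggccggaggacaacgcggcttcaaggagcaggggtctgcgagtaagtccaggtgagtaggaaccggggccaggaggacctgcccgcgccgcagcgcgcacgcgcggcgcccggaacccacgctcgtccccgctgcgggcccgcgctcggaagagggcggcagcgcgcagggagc
Dusp6: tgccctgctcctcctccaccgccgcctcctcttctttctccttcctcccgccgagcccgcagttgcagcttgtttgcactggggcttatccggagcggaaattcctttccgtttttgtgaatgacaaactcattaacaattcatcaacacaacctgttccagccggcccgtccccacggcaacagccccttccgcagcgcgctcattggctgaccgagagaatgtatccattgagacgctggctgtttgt

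The window of Dusp8 held the full palindrome at 2 places, starting 107 and 63 bases before the gene's start. That of Dusp1 held it once, starting 143 bases before the start, with a further TGACG starting 191 bases before it. Dusp16 held a single TGACG, starting 70 bases before the start, and Dusp2 a single one on the opposite strand, from base 6 to base 10 past the start, outside the printed stretch. No TGACG was found in the windows of Dusp14 and Dusp6. Among all 32851 windows of the same length, 20.8% held TGACG and 1.79% held TGACGTCA. A match is a description of letters and not of binding, and the windows of 6 genes allow no statement about the factor. TGACG was printed and drawn out of several motifs searched, and the others are given at the end. The full palindrome was absent from Dusp2 and Dusp16, which also rose, and most of all windows lack TGACG, as those of Dusp14 and Dusp6 do. A link between the letters and the direction of change was not tested.

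**Figure D1:**
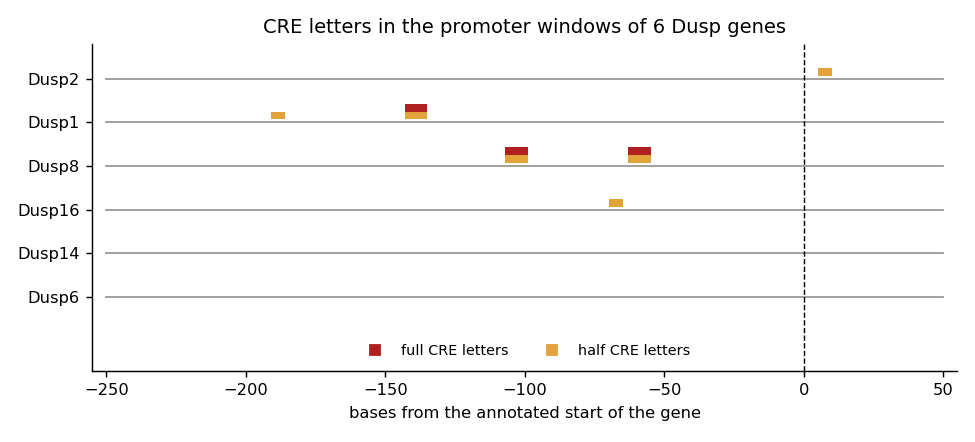
Positions of the CRE letters in the promoter windows of the 6 Dusp genes, with the distance from the annotated start in bases on the horizontal axis and 1 line per gene. The windows of Dusp2, Dusp1, Dusp8 and Dusp16 hold at least 1 TGACG, that of Dusp2 past the start, and those of Dusp14 and Dusp6 hold none. The full palindrome appears once in Dusp1 and at 2 places in Dusp8. Of all windows, 20.8% hold TGACG, and a link between the letters and the direction of change was not tested.

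Dusp2 encodes a nuclear phosphatase known from activated lymphoid and myeloid cells that acts on MAP kinases. Its ratios for sets 1, 2 and 3 were 2.66, 2.89 and 2.76 where Cy5 marked the treated RNA, and 2.37, 2.53 and 2.54 where Cy3 did. All 6 arrays were high, and each array with treated RNA in Cy5 lay above each with treated RNA in Cy3. The mean was 2.62 ± 0.10, or 6.17-fold (limma, adjusted p = 3.75e-06), rank 13 among the 8331 genes from the highest ratio down. The means of 2.77 under Cy5 and 2.48 under Cy3 did not differ past the threshold in the test of the dye effect (limma, adjusted p = 0.114), a test that called 5 of 8331 genes.

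The probes of Dusp2 disagreed in size. With sets in the same order, probe 1391 had 3.59, 3.79 and 3.56 under Cy5 and 3.39, 3.45 and 3.47 under Cy3, a mean of 3.54 ± 0.07 or 11.6-fold. Probe 6861, annotated to the same transcript record, had 1.72, 2.00 and 1.96 under Cy5 and 1.34, 1.60 and 1.61 under Cy3, a mean of 1.71 ± 0.15 or 3.26-fold. Probe 1391 was higher than probe 6861 on 6 of 6 arrays, by 1.84 ± 0.12. Probe 3404 was measured on 1 array only and read 3.72 there. The exact sign-flip test over 3 sets gave p = 0.25 (two-sided), the smallest p it can give. Probes 1391 and 6861 each passed the probe test (limma, adjusted p = 1.05e-06 and 3.9e-05), in which 12.5% of 11442 probes were called, 6.85% higher and 5.63% lower.

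Dusp1, the nuclear phosphatase that prefers p38 and JNK, had ratios of 1.48, 1.75 and 1.85 where treated RNA was in Cy5 and of 1.66, 2.27 and 1.92 where it was in Cy3. The lowest values of each orientation were those of set 1. Its mean was 1.82 ± 0.23, or 3.54-fold (limma, adjusted p = 7.7e-05), rank 30 of 8331. Probe 10684 averaged 1.92 ± 0.22 and probe 9414 averaged 1.73 ± 0.24, and the first was above the second on 6 of 6 arrays by 0.19 ± 0.05. In Dusp1 the arrays with Cy3 on the treated RNA averaged 1.95 and those with Cy5 on it 1.69, without passing the test of the dye effect (limma, adjusted p = 0.216).

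Dusp8, which acts on JNK and p38, had ratios of 1.02, 1.42 and 1.28 where treated RNA was in Cy5 and of 1.13, 1.29 and 1.01 where it was in Cy3. Its mean was 1.19 ± 0.15, or 2.29-fold (limma, adjusted p = 0.000127). As with Dusp2, one probe read higher than the other: probe 9728 averaged 1.63 ± 0.32 and ran between 1.33 and 2.19, and probe 18014 averaged 0.76 ± 0.07 and ran between 0.60 and 1.08. The ranges of these probes did not overlap, and their difference within an array was 0.87 ± 0.35, with 1.53 on the array of set 2 with treated RNA in Cy5 as the highest.

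Dusp16, a phosphatase with a preference for JNK, was read by 1 probe. It had 1.34, 1.15 and 1.18 where treated RNA was in Cy5 and 1.10, 1.12 and 1.18 where it was in Cy3. Apart from the first of these, the values lay close together, and the mean was 1.18 ± 0.04, or 2.26-fold (limma, adjusted p = 2.3e-05). Dusp8 and Dusp16 ranked 61 and 62 of 8331 genes.

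Dusp6 encodes the cytoplasmic phosphatase that is selective for ERK. Its single probe had no ratio on the set 1 array with treated RNA in Cy5. It read -0.92 and -1.25 for sets 2 and 3 in that orientation, and -1.14, -1.63 and -1.17 for sets 1, 2 and 3 with treated RNA in Cy3. All 5 measured arrays were below 0, and none overlapped the range of Dusp14. The mean of -1.21 ± 0.07 is a 2.31-fold lower level in treated cells, rank 5 from the lowest of the 10261 genes in the fit with incomplete probes. Set 1 entered this mean with 1 orientation, so a dye effect does not cancel there. With exact zeros kept as ratios the mean was -1.02 and the call was lost (limma, adjusted p = 0.0853), and with set 1 left out it was -1.25 (limma, adjusted p = 0.0137).

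Dusp14 is a small atypical phosphatase that lacks the kinase-binding domain of the other members, and in mouse T cells it acts on TAB1. Its ratios were -0.13, -0.24 and -0.29 where treated RNA was in Cy5 and -0.20, -0.25 and -0.33 where it was in Cy3. All 6 arrays were below 0 by a small amount, and the mean was -0.24 ± 0.07, or 1.18-fold lower in treated cells (limma, adjusted p = 0.0216). Its probes agreed within their spread, at -0.24 ± 0.06 for probe 16610 and -0.24 ± 0.11 for probe 17511. Of 11 alternative fits, 4 called Dusp14. Without set 1, 2 or 3 it was at -0.28, -0.24 and -0.20 (limma, adjusted p = 0.0718, 0.0543 and 0.0717), and with incomplete probes included it was at -0.24 (adjusted p = 0.0678).

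**Figure D2:**
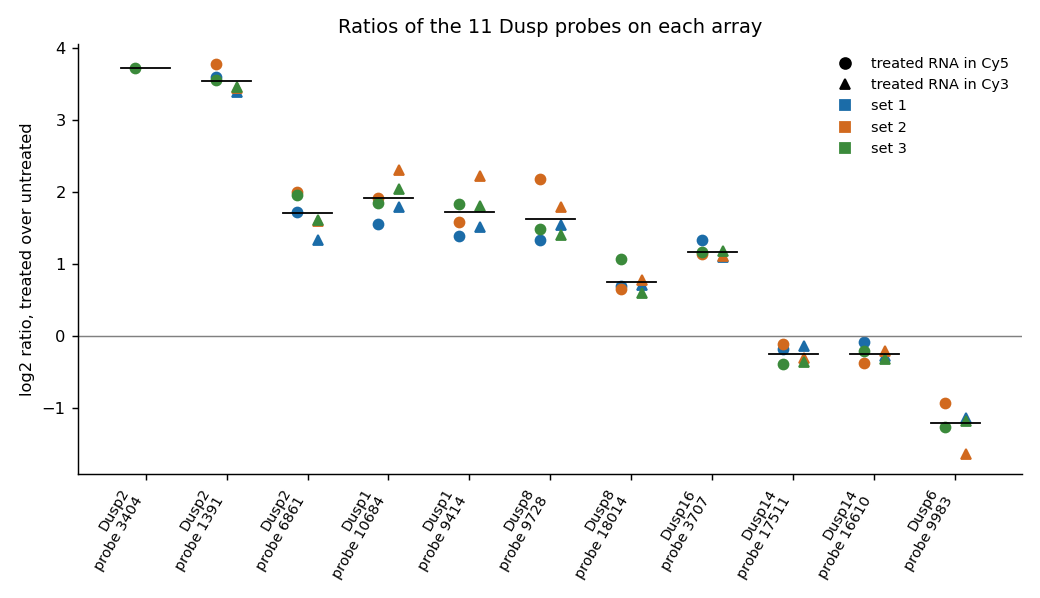
Log2 ratio of treated over untreated RNA for each of the 11 Dusp probes, with 1 point per array, circles for treated RNA in Cy5, triangles for treated RNA in Cy3, colours for the sets and a bar at the mean over sets. The probes of Dusp2, Dusp1, Dusp8 and Dusp16 lie above 0 on every array where they were measured, those of Dusp14 lie between -0.38 and -0.08, and that of Dusp6 lies between -1.63 and -0.92.

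**Figure D3:**
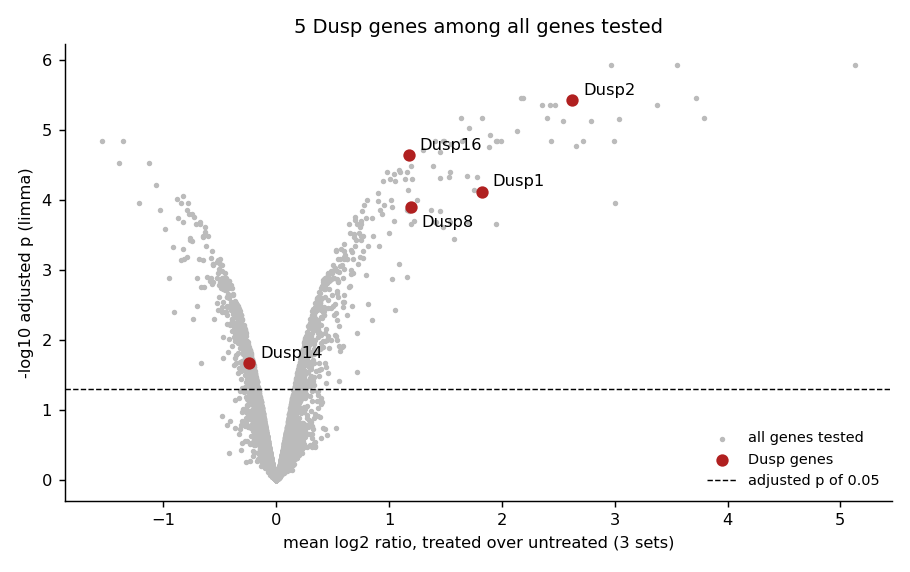
Mean log2 ratio of treated over untreated RNA against -log10 of the adjusted p (limma) for the 8331 genes tested in grey, with the 5 Dusp genes of the fit in red and the threshold of 0.05 as a dashed line. Dusp2 lies near the upper right edge at 2.62, and Dusp14 lies at -0.24 among many genes of like size.

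The genes that rose were set against Dusp14 within each array, which removes whatever a whole array shares. Dusp2 exceeded Dusp14 by 2.86 ± 0.16, and the difference ran between 2.57 and 3.13 over the 6 arrays. For Dusp1 the difference was 2.06 ± 0.29, between 1.60 and 2.52. Dusp8 exceeded Dusp14 by 1.43 ± 0.18 and Dusp16 did so by 1.42 ± 0.07. Because these 4 genes were above 0 and Dusp14 below 0 on all 6 arrays, the sign of each difference was fixed by the choice of pairs, and the differences are given as sizes with no test. In the other direction, Dusp6 minus Dusp14 was -0.96 ± 0.07 over the 5 arrays with a ratio for Dusp6, likewise with no test.

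From the highest ratio down, the order was Dusp2, Dusp1, Dusp8, Dusp16, Dusp14 and Dusp6. Neighbours in it were picked by their ratios, so their differences are given with no test. Dusp2 lay above Dusp1 by 0.80 ± 0.13 and Dusp1 above Dusp8 by 0.63 ± 0.12, each on 6 of 6 arrays. Dusp8 and Dusp16 did not differ beyond their spread (0.02 ± 0.19, with Dusp8 above on 4 of 6 arrays). Since the probes of Dusp2 and Dusp8 differ by more than some of these steps, the order holds for gene averages and not for every probe. The lower probe of Dusp2 averaged 1.71, against 1.73 and 1.92 for the probes of Dusp1, and the lower probe of Dusp8, 18014, averaged 0.76, against 1.18 for the probe of Dusp16.

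**Figure D4:**
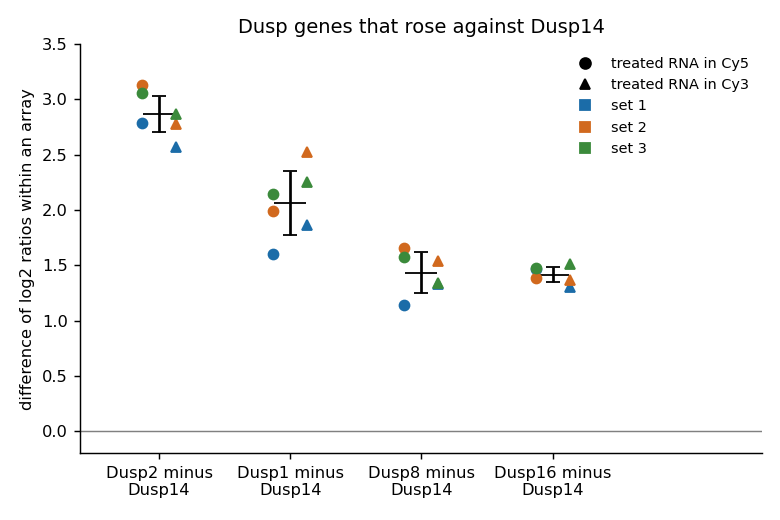
Difference of log2 ratios within an array between each Dusp gene that rose and Dusp14, with 1 point per array, circles for treated RNA in Cy5, triangles for treated RNA in Cy3, colours for the sets, and a bar with whiskers for the mean ± SD over 3 sets. All points lie above 1.1, and the differences of Dusp2 lie above 2.5.

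Measured by the root mean square difference of log2 ratios over the 6 arrays, the genes nearest to Dusp2 were the signalling adaptor gene Traf1 (0.165), the kinase gene Pim1 (0.220) and Tnf (0.237). Nearest to Dusp14 were the small GTPase gene Rit1 (0.0409), Fibp (0.043) and Ppcdc (0.0508), with mean ratios of -0.24, -0.23 and -0.26. All arrays measure the same contrast, so this likeness says that the ratios are of one size and no more.

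The rest of the MAP kinase pathway was read from 8 lists of other genes, of which 82 were in the fit. Of these, 23 rose (28%, against 6.96% of all genes tested) and 6 fell (7.32%, close to the 6.21% of all genes), and their median ratio was 0.08, against -0.01 for all genes tested. Of the rises, 14 were in the list of immediate early genes and 6 in that of other inhibitors of MAP kinase signalling. The kinase kinase kinases and activators gave 2, the MAP kinase-activated kinases 1 and the remaining lists 0. The pooled share of rises therefore does not describe each list. The lists are small, and 27% of all genes tested were at an unadjusted p under 0.05. None of the 7 other dual-specificity phosphatases in the fit passed the test (limma, 0 of 7 at an adjusted p of 0.05, against 13.2% of all genes). At an unadjusted p of 0.05 it was 1 of 7 (limma, 14.3%, against 27% of all genes). So short a list cannot set a count of 0 apart from the share of all genes. Others of the 19 listed, Dusp7 and Dusp9 among them, were not in the fit, so the count does not cover every like phosphatase. Among the 7, Dusp12 had the largest absolute ratio at -0.16 ± 0.05 (limma, adjusted p = 0.0613), and the list's median was -0.05. In the fits on 6 arrays as separate values, Dusp12 was called at the same ratio, without a set term (limma, adjusted p = 0.0243) and with the set as a block (limma, adjusted p = 0.0489), where 8.17% and 6.82% of all genes were called lower. The tyrosine and serine-threonine phosphatases that act on MAP kinases likewise had 0 of 8 genes past the test (limma, against 13.2% of all genes). At an unadjusted p of 0.05 it was 3 of 8 (limma, 37.5%, against 27% of all genes), and the median was 0.09.

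Among the MAP kinases themselves, 1 of 9 genes passed and fell (11.1%, against 6.21% of all genes), Mapk14, which encodes p38 alpha (-0.17 ± 0.0016, limma, adjusted p = 0.0382). Its single arrays ran from -0.30 to -0.05, a much wider spread than that of the set averages. Mapk14 was called in 3 of 11 alternative fits and lost its call with set 1, 2 or 3 left out, at -0.17 each time. None of the 5 MAP kinase kinases passed the test (limma, 0 of 5, against 13.2% of all genes), and their median was 0.08. At an unadjusted p of 0.05 it was also 0 of 5 (limma, against 27% of all genes). So short a list cannot set a count of 0 apart from those shares. Of 19 kinase kinase kinases and upstream activators, 2 rose (10.5%, against 6.96% of all genes) and 4 fell (21.1%, against 6.21%). Map3k8, the kinase that links TLR4 to ERK, rose by 0.56 ± 0.20 (limma, adjusted p = 0.00642), and did not pass with exact zeros kept as ratios (0.56, adjusted p = 0.0821). Map3k14, the NF-kappaB-inducing kinase gene, fell by 0.74 ± 0.10, Map3k1 fell by 0.45 ± 0.04 and Tab1, whose protein activates the kinase TAK1, fell by 0.43 ± 0.06. Map3k1 did not pass with incomplete probes included, at -0.25 (limma, adjusted p = 0.0549), or with exact zeros kept as ratios, at -0.20 (limma, adjusted p = 0.0523). Of 4 MAP kinase-activated kinases, 1 rose (25%, against 6.96% of all genes). It was Mapkapk2, a kinase downstream of p38, at 0.24 ± 0.07 (limma, adjusted p = 0.0204). That call was made in 4 of 11 alternative fits and lost with set 1, 2 or 3 left out (0.28, 0.22 and 0.22).

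In the list of other inhibitors of MAP kinase signalling, 6 of 12 genes rose (50%, against 6.96% of all genes), 0 fell (limma, against 6.21%) and the median was 0.25. At an unadjusted p of 0.05 a further gene passed, Rasa2, at -0.15 ± 0.06 (adjusted p = 0.0786). Ier3, a stress response gene, rose by 1.78 ± 0.19 and Tnfaip3, whose protein restrains NF-kappaB, by 1.70 ± 0.28. Gadd45b and Gadd45a rose by 1.37 ± 0.19 and 1.18 ± 0.15. Their proteins are stress sensors known to activate the kinase encoded by Map3k4 upstream of p38 and JNK. That of Gadd45b also inhibits the kinase encoded by Map2k7. Gadd45a and Gadd45b are thus not inhibitors alone and Tnfaip3 restrains NF-kappaB. Whether Ier3 acts as an inhibitor of MAP kinases was not examined here. The count is therefore not one of plain MAP kinase inhibitors. The Sprouty genes Spry1, Spry2 and Spry4, known inhibitors of ERK signalling from growth factor receptors, were at 0.07, 0.01 and -0.05 and did not pass. Spry4 was at -0.37 with treated RNA in Cy5 alone (limma, adjusted p = 0.0491) and at 0.27 in Cy3 alone (limma, adjusted p = 0.127). Of 18 MAP kinase-responsive immediate early genes, 14 rose (77.8%, against 6.96% of all genes) and 1 fell (5.56%, against 6.21%), with a median of 0.64. Besides Egr1, the largest rises in that list were those of Egr2 (3.79 ± 0.25), Myc (2.79 ± 0.18) and Ier2 (1.99 ± 0.15). The gene that fell was Fos, which encodes a subunit of the AP-1 transcription factor, at -0.25 ± 0.04 and below 0 on 6 of 6 arrays (limma, adjusted p = 0.0135). Fos did not pass without set 1, at -0.27 (limma, adjusted p = 0.0704), or with treated RNA in Cy3 alone, at -0.20 (limma, adjusted p = 0.14). No test of the difference between the lists was made, and the lists were chosen with earlier results of these data known.

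**Figure D5:**
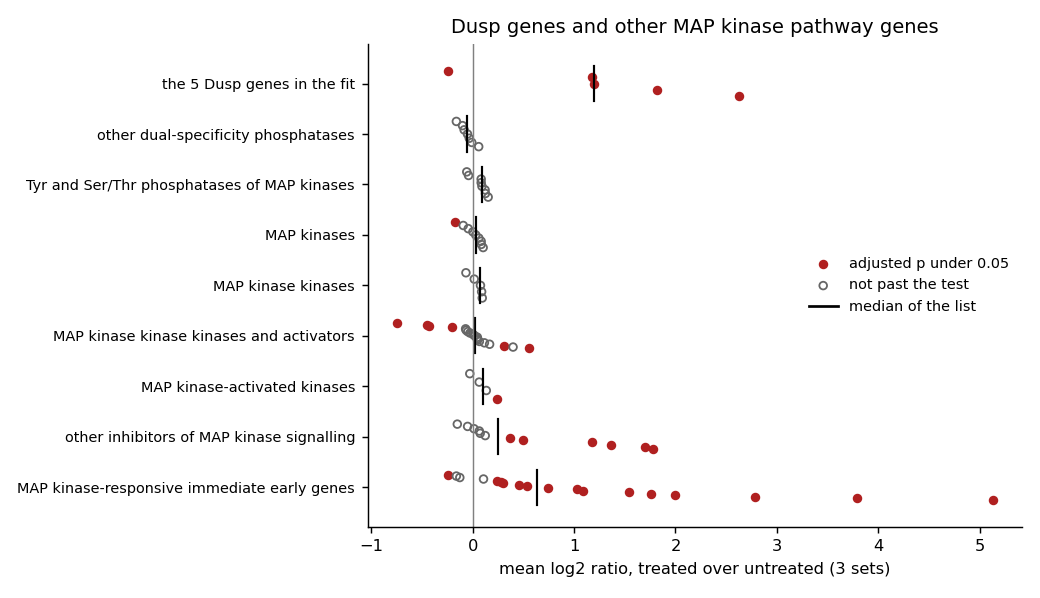
Mean log2 ratio of treated over untreated RNA for the 5 Dusp genes in the fit and for 8 lists of other MAP kinase pathway genes, with filled points for an adjusted p under 0.05, open points otherwise and a bar at each list's median. The other dual-specificity phosphatases in the fit lie between -0.16 and 0.06 with no filled point, against 13.2% of all genes tested with an adjusted p under 0.05. Of the 5 Dusp genes, chosen with earlier results known, 4 lie at 1.18 or above. Dusp6, which fell, was outside the fit and is not drawn.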

How the data were processed

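Treated and untreated RAW 264.7 cells were compared on 6 dual-channel arrays, with the dye of the treated RNA taken from the labels. The deposited values are log2 ratios made by the authors, and their scanner, background correction and normalization are not given in the sources used here. Array medians lay between -0.00776 and 0.0159, so the arrays may have been centred, in a way that remains unknown. No intensities were used, so precision is limited by the number of arrays. The log base was read from the values: multiplied by log10 of 2, 99.98% of them have 6 digits (relative tolerance 1e-12). Ratios of arrays whose treated RNA carried Cy3 were turned by -1. Exact zeros, between 8.99% and 23.9% of an array, were taken as missing.

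Complete probes with 1 gene symbol (9968) were combined into 8331 genes by their mean. Symbols were checked against RefSeq (GRCm38.p6), which changed 0. Both orientations of a set were averaged, and limma 3.58.1 (lmFit, eBayes) tested the 3 set values against 0, two-sided, with 2 residual and 4.08 prior degrees of freedom. P-values were adjusted over all genes by Benjamini-Hochberg. When incomplete probes were included, genes needed a value in at least 2 sets. Single probes, and the difference between the orientations as the dye effect, were fitted in the same way. Differences between probes of a gene were tested by exact sign flips over sets, and those between genes, picked by direction or order, were not tested. The fit was tested on simulated data, drawn as independent set values with no dye orientations and no missing ratios, so those features were not checked.

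The members and the lists were chosen with earlier results of these data known. The text names all 9 Dusp genes, Tnf, Il1b and Egr1, up to 4 called members of each list by absolute ratio, and the 3 genes nearest to the highest and the lowest Dusp gene in the fit. Dusp12, Rasa2, Fos and the Sprouty genes were named after their values were seen. Promoter windows were searched on both strands.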

Additional observations from a re-analysis of the deposited data

Results flagged for a closer look

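The ratio of Dusp16 on the set 1 array with treated RNA in Cy5, 1.34, stood apart from the other 5 arrays, the nearest of which was at 1.18. The gap was 0.648 of the whole range, above the 95% critical value of Dixon's test for 6 values. Chance alone marks about 1 in 20 groups, and 6 Dusp genes were examined. Without set 1 the mean of Dusp16 was 1.16 and passed the test.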

How the results depend on the processing

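Dusp1, Dusp2, Dusp8 and Dusp16 rose and passed the test in each of 11 alternative fits, with means between 1.69 and 1.95, 1.96 and 2.77, 1.11 and 1.25, and 1.13 and 1.22. The lowest for Dusp2, 1.96, came with exact zeros kept as ratios, where its probe 3404 enters with zeros. Dusp14 kept its sign but did not pass with exact zeros kept as ratios (-0.24, adjusted p = 0.0784), with incomplete probes included (-0.24), with treated RNA in Cy5 alone (-0.22) or in Cy3 alone (-0.26), or with any set left out (-0.28 to -0.20). The fits without a set have fewer averages, and other causes were not tested. Dusp6 kept its sign in 10 alternatives added after seeing the data and passed in 9, between -1.70 with quantile normalization and -1.02 with exact zeros kept as ratios, where a missing ratio enters as 0 and the call was lost. With 6 arrays as separate values, the differences from Dusp14 had the same sizes (2.86, 2.06, 1.43 and 1.42 for Dusp2, Dusp1, Dusp8 and Dusp16). Each set holds both orientations, so this sameness follows from arithmetic and is no check. Genes called numbered 1097 in all, against 522 with exact zeros kept as ratios, 655 with incomplete probes included, 649 with treated RNA in Cy3 alone, and 499 to 832 with a set left out, where the lowest was without set 1. Of the pathway lists together, 14 rose and 3 fell with zeros kept as ratios, 3 fell with incomplete probes included and 3 with treated RNA in Cy3 alone. Over all genes, 286 rose and 236 fell with zeros kept, 367 and 288 with incomplete probes included, and 383 and 266 in Cy3 alone. The main fit had 580 and 517. With a set left out, 18 to 22 genes of the lists rose and 3 to 4 fell, while over all genes 296 to 471 rose and 203 to 387 fell. No positive pairing by set number was seen in the ratios. After each orientation's mean was taken off, same-numbered arrays had correlations of -0.0077, -0.281 and -0.0943. Set 2 had the largest share of exact zeros with treated RNA in Cy5 (17.7%) and in Cy3 (23.9%), so the numbers may still mark something shared. With the set number as a replicate block on 6 arrays 1283 genes were called, against 1439 without it, and Dusp14 passed in both at -0.24. Dusp12 and Rasa2 passed in both too, at -0.16 and -0.15, and not in the fit on set averages. The differences between genes have no blocked form. Averages over pairs that may be arbitrary can understate the spread between arrays. Of 21 other named genes, 14 kept their call in all 11 alternatives, and 0 changed sign. Among genes named after their values were seen, Spry2 turned to -0.069 with treated RNA in Cy5 alone and ran from -0.017 (without set 2) to 0.051 with a set left out. Spry4 turned to 0.027 with incomplete probes included and 0.27 in Cy3 alone, and neither gene passed where its sign turned. Signal over background was unknown.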

Other observations

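Besides the CRE letters, the promoter windows were searched for 3 further motifs. TGANTCA, the AP-1 letters, was found in 0 of the 6 Dusp windows, against 7.81% of all 32851 windows. The outline of the serum response element (CC and GG with 6 bases of any kind between them), met in 73.3% of all windows, was found at 4, 3, 3 and 4 places in Dusp1, Dusp2, Dusp8 and Dusp16, at 3 places in Dusp14 and at 0 in Dusp6. The outline of NF-kappaB letters (GGG and CC with 5 bases of any kind between them), met in 50.8% of all windows, had 6 matches in Dusp2 and 3 in Dusp1, several of them overlapping, 2 in Dusp6, 1 in Dusp14 and 0 in Dusp8 and Dusp16.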
